A study of Homo sapiens with 2 samples.

Results

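The protein-coding genes ENKUR, PEPD, TBXAS1, EEPD1, VPS26C and DISC1 are described here as the hosts of the strongest intronic peaks in a map of N6-methyladenosine (m6A). The 6 genes were chosen by the fold of an intronic peak, so those folds are given as a description and carry no test. Their RefSeq spans on hg38 held the summits of 62 of 39801 peaks, and the 6 genes are among 20037 protein-coding genes considered. The map compared 1 library of RNA captured by an m6A antibody (RIP) with 1 input library, both from wild-type HCCLM3 cells, a human line of hepatocellular carcinoma. No treatment, time point or replicate is given for either library, so every value describes this pair of libraries and no difference has a replicate check. HCCLM3 is a tumour line of high metastatic capacity and stands for liver only to that extent. The hepatocyte markers APOB, FOXA2 and HNF4A held a peak with a q-value under 0.05, as did 2 of 6 markers of other cells (LUM and PECAM1). Of all protein-coding genes, 39% held such a peak. Part of the hepatocyte list is not reported here, so no share is given for it, and no cell identity is read from these markers. A missing peak does not show that a gene is silent.

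As background, m6A is written on nascent RNA by a nuclear methyltransferase complex built around METTL3 and METTL14, and in mature mRNA it is found mostly in long internal exons and around stop codons. Introns are spliced out and usually degraded in the nucleus, so m6A in spliced-out introns is seen mainly where intron-containing or other nuclear RNA is sampled. Methylated sequence within introns is known from retained introns, from unannotated exons and transcripts, and from transposable elements. A peak is a stretch where RIP fragments exceed input, and its summit is the highest point. Its fold is the ratio of the scaled RIP fragments at the summit plus 1 to an input level plus 1, as the authors' peak caller gave it. The input level is the background value that the caller set against each summit. It is not a count of input fragments there. Many values lie below 1, and 10483 of 39801 peaks share the lowest, 0.246. The fold does not give the share of RNA molecules that carry the mark. Each fold is followed by a 95% interval for the chance of counting RIP fragments alone, and a q-value is a p-value adjusted over all candidate sites by the peak caller.

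The strongest intronic peaks of the 6 genes had folds of 21.9 to 26.9, against a median of 2.90 over all 15069 intron peaks. They filled ranks 1 to 6 by fold among intron peaks, and 6 of the 10 highest folds of the whole list were theirs. Without the pseudocount of 1, VPS26C, PEPD, DISC1 and EEPD1 filled ranks 1 to 4 among intron peaks, while ENKUR stood at rank 24 and TBXAS1 at rank 31, below P2RY6 and SENP6 among others. Only 2 peaks of the list, in CREBRF and NFIA, had a higher fold than the PEPD peak. A fold of at least 10 was reached by 164 intron peaks (1.09%, 95% Wilson interval 0.935 to 1.27). The lowest of the 6 was VPS26C at 21.9, and the next intron peak outside them, in P2RY6, had a fold of 20.7. All 6 summits carried many RIP fragments, 41 to 78 with a median of 49.5, against a median of 6 over all intron peaks. Their input level was 0.246 to 1 with a median of 0.326, against a median of 0.296 over all intron peaks. A low input level was thus not particular to the 6. How far the input level sets these folds was not tested.

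**Figure D1:**
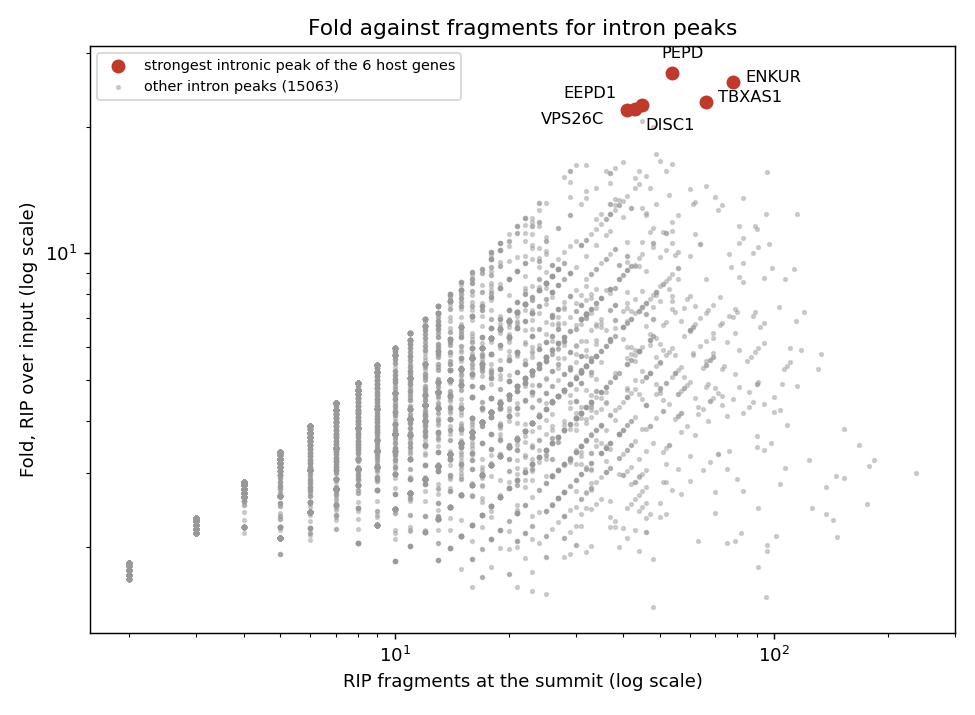
Fold over input (log axis) against RIP fragments at the summit (log axis) for every intron peak, with the strongest intronic peak of each host gene in red and all other intron peaks in grey. The 6 red points lie above every grey point, at 41 to 78 fragments, while many grey points have more fragments at a lower fold.

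ENKUR encodes enkurin, an adaptor of sperm and motile cilia that binds TRP channels and calmodulin. Its span lies on the minus strand of chromosome 10 from 24981985 to 25062327. The strong peak ran from 25054273 to 25054806 in intron 2 of 5, and rested on 78 RIP fragments over an input level of 1, for a fold of 25.5 (95% counting interval 20.3 to 31.7). Its −log10 p of 66.6 was the highest of all intron peaks. The other intronic peaks of ENKUR, both in the same intron, had folds of 2.80 on 5 fragments and 2.21 on 3 fragments, and their q-values were above 0.05. The span held 1 exonic peak, of fold 10.2 (7.13 to 14.1, 33 RIP fragments), but the label placed it in exon 3 of 3 of THNSL1, a threonine synthase-like gene on the plus strand that overlaps ENKUR. No exon or UTR peak was thus labelled as ENKUR's own. The peaks carry no strand, so RNA of ENKUR and THNSL1 could not be told apart where the genes overlap.

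The RefSeq promoter sequences hold 2 starts for ENKUR, and the intronic summit lay between them. Counted in the direction of transcription, it stood at 7.77 kb from the distal start and at -38.4 kb from the proximal one, so ENKUR transcripts from the proximal start do not reach it. The 250 bases before each start are shown (RefSeq, GRCh38.p14, minus strand, 5′ to 3′), with the 50 bases nearest to the start in capitals. The distal stretch is chr10:25062328-25062577 and the proximal one chr10:25016159-25016408.
ENKUR distal start: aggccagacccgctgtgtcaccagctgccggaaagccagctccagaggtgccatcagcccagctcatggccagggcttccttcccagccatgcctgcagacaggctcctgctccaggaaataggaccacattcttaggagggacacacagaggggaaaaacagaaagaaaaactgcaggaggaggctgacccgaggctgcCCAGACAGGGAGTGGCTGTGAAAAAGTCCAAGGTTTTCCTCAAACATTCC
ENKUR proximal start: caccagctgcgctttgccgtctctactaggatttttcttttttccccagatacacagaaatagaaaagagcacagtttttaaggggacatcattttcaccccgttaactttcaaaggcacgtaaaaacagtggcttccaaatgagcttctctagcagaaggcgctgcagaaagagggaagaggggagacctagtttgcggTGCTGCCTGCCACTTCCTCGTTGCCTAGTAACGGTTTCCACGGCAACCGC
No peak of the 6 genes overlapped any of the promoter windows that RefSeq-based sequences gave for 5 of them.

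PEPD encodes prolidase, the enzyme that splits dipeptides ending in proline and is needed for collagen turnover. Its span lies on the minus strand of chromosome 19 from 33386950 to 33521791. The strong peak ran from 33422180 to 33423083 in intron 9 of 14, with 54 RIP fragments over an input level of 0.326 and a fold of 26.9 (20.4 to 34.9). This was the highest fold of any intron peak. All 4 peaks of PEPD were intronic, and none lay in its exons or UTRs. A second peak in intron 9, from 33457901 to 33458795, held more RIP fragments, 85, but over an input level of 9, so its fold was 5.55 (4.46 to 6.84). In intron 11, a peak of fold 6.59 (4.17 to 10, 19 fragments) lay between 33404575 and 33405422, and its summit also lay in the span of the long non-coding RNA gene LOC124904692. The remaining peak, 993 bases from the strong one, had a fold of 3.07 on 8 fragments. Intron 9 thus held both the highest fold and the highest fragment number of PEPD, at different places.

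TBXAS1 encodes thromboxane A synthase, a cytochrome P450 of the endoplasmic reticulum that turns prostaglandin H2 into thromboxane A2. Its span lies on the plus strand of chromosome 7 from 139778242 to 140020293. The strong peak ran from 139984601 to 139985142 in intron 13 of 16, with 66 RIP fragments over an input level of 0.888 and a fold of 23 (17.9 to 29.1). TBXAS1 held the most peaks of the 6 genes. Its 28 peaks placed it 21st both by number and by peaks per length among the 3356 protein-coding genes of at least 100 kb, at 11.6 peaks per 100 kb against a median of 1.71. Of these peaks 26 were intronic, spread over introns 4, 5, 7, 8, 9, 13 and 14, and 13 had a q-value under 0.05.

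Intron 5 of TBXAS1 held 10 peaks within 32.7 kb. The strongest of them, between 139834171 and 139835090, had 44 RIP fragments and a fold of 15.7 (11.6 to 20.9), and was the only other intronic peak of the 6 genes with a fold of at least 10. Around it stood peaks of fold 4.58, 3.59, 3.59 and 5.29, each less than 1 kb from its neighbour, and those of 3.59 had q-values above 0.05. Farther along intron 5, a peak of fold 4.92 (2.58 to 8.92) passed that threshold. In intron 4, a fold of 5.54 (3.89 to 7.68) stood on 33 fragments. All 3 peaks of intron 7 passed, with folds of 4.55, 4.86 and 3.65. In intron 9, a fold of 8.84 (5.95 to 12.7) was reached between 139947128 and 139947560, beside a peak of fold 4.26 (2.84 to 6.17). In intron 14, 1 peak had a fold of 6.92 (4.42 to 10.4). The exonic signal of TBXAS1 was weaker. Exon 13 of 17 held a peak of fold 3.81 (2.76 to 5.13) on 40 RIP fragments over an input level of 6, from 139962026 to 139962889, and a 5′ UTR peak had a fold of 2.75 on 7 fragments with a q-value above 0.05.

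EEPD1 encodes an endonuclease that acts at stalled replication forks. Its span lies on the plus strand of chromosome 7 from 36153254 to 36301538. The strong peak ran from 36219360 to 36220363 in intron 2 of 7, with 45 RIP fragments over an input level of 0.326 and a fold of 22.5 (16.6 to 29.9). EEPD1 had the exonic or UTR peak with the most fragments of the 6 genes. It lay in the 3′ UTR, between 36299067 and 36299792, with 119 RIP fragments over an input level of 9 and a fold of 7.73 (6.42 to 9.24). The −log10 p values of these peaks were close, 45.2 for the intron and 43.5 for the 3′ UTR. A promoter-labelled peak between 36154296 and 36155640, with its summit 1.75 kb from the start, reached a fold of 4.13 (3.10 to 5.41). Exon 7 of 8 had a fold of 2.53 (1.70 to 3.63), and the other intron 2 peaks had folds of 2.75 and 2.21. These 3 had q-values above 0.05.

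VPS26C encodes a subunit of retriever, the complex that returns membrane proteins from endosomes to the cell surface. Its span lies on the minus strand of chromosome 21 from 37223420 to 37268108. The strong peak ran from 37261041 to 37261904 in intron 1 of 4, with 41 RIP fragments over the lowest input level of the list, 0.246, and a fold of 21.9 (16.0 to 29.4). It was the only peak of VPS26C with a q-value under 0.05, and it held 69.5% of all RIP fragments counted at the gene's summits. The other intron 1 peaks had folds of 2.86 and 2.75, each on 4 fragments. Its 3′ UTR carried 10 fragments between 37223335 and 37223979, a fold of 2.41 (1.33 to 4.17).

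DISC1 encodes a scaffold protein of the centrosome and cytoskeleton, studied mainly in neural development. Its span lies on the plus strand of chromosome 1 from 231626790 to 232041272, inside the longer non-coding read-through gene TSNAX-DISC1. The deposited labels tied all 13 intronic peaks of DISC1 to TSNAX-DISC1 transcripts. The strong peak ran from 232030741 to 232031725 in intron 15 of 15 of that gene, with 43 RIP fragments over an input level of 0.296 and a fold of 22.1 (16.2 to 29.4). Of the other 15 peaks, 7 rested on 3 fragments, and the highest fold was 5.63 (3.43 to 8.83, 16 fragments), in intron 7 of 7 of a shorter TSNAX-DISC1 transcript. Only 3 of the 16 peaks had a q-value under 0.05, all of them intronic, the remaining one with a fold of 4.63 (2.43 to 8.38) on 8 fragments. The 3 peaks with a 3′ UTR label had folds of 3.38, 2.75 and 2.35 on 5, 4 and 3 fragments.

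The strong DISC1 peak also lay in LOC124904549, a long non-coding RNA gene on the plus strand from 232026566 to 232034876, with its summit 4.85 kb from that gene's start. DISC1 and LOC124904549 lie on the same strand, so their RNA could not be told apart at this place. The 250 bases before the LOC124904549 start, chr1:232026316-232026565, are shown (RefSeq, GRCh38.p14, plus strand, 5′ to 3′, last 50 bases in capitals) since the summit lies within this gene.
LOC124904549 start: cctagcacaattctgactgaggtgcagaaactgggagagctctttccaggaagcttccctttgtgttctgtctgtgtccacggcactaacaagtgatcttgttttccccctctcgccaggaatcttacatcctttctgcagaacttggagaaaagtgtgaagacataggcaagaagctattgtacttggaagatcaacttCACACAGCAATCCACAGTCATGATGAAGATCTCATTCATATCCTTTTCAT
At the other 5 strong summits, no further RefSeq gene overlapped the host.

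**Figure D2:**
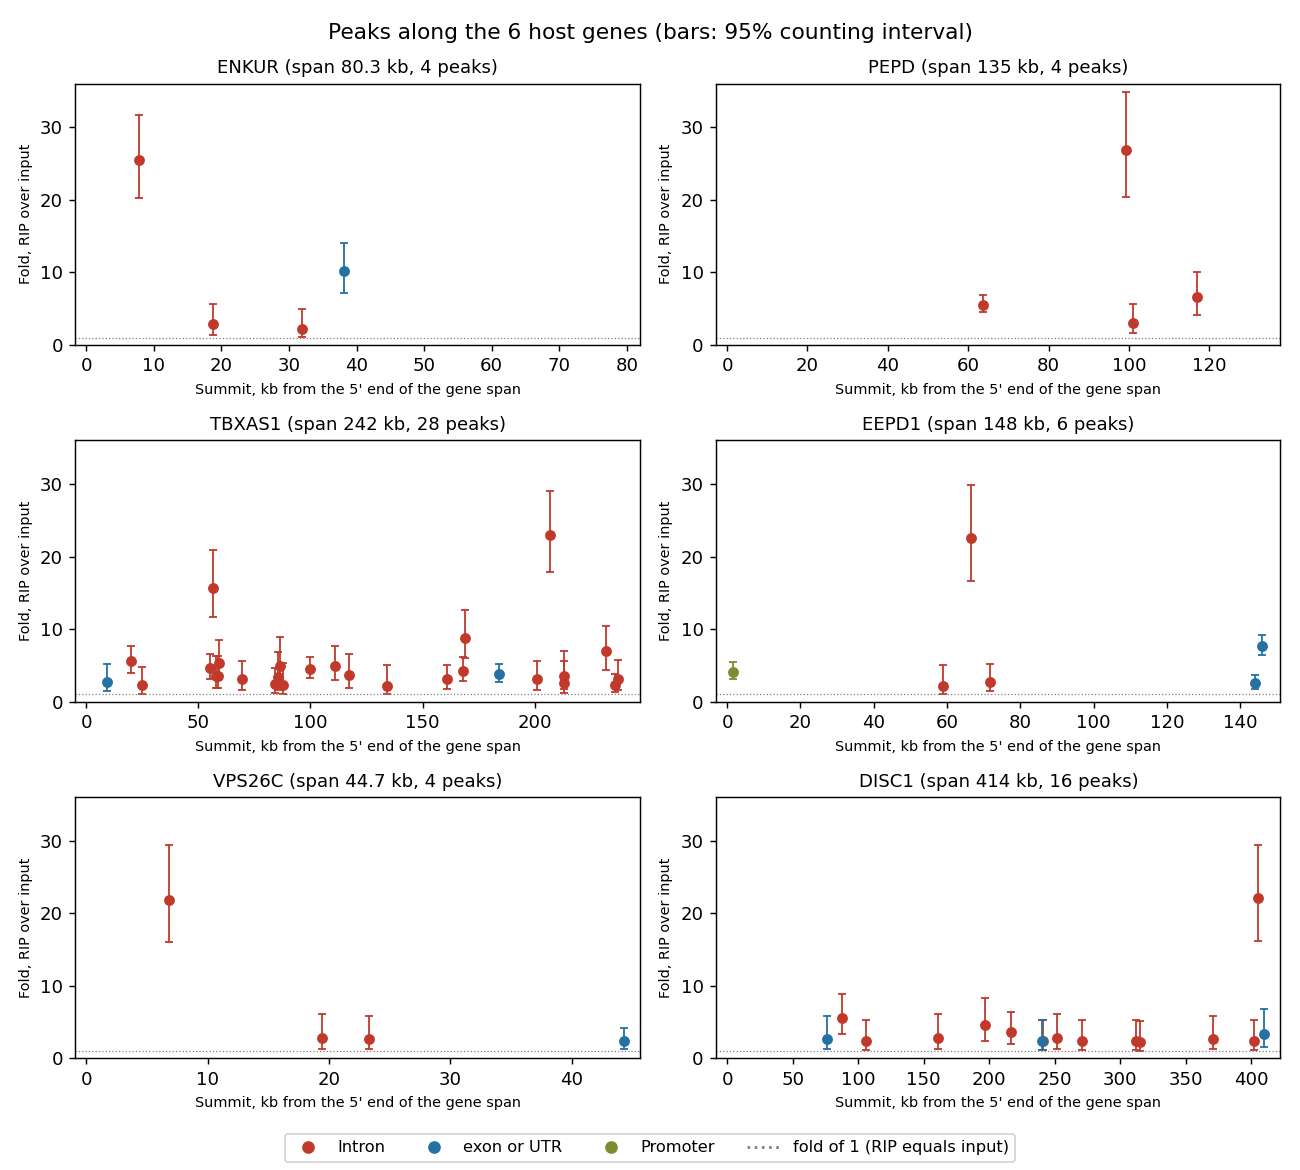
Fold over input (linear axis) of every peak against the distance of its summit from the 5′ end of the gene span in kb, 1 panel per host gene, with 95% counting intervals. In each panel 1 red intronic point stands highest, between 21.9 and 26.9, and TBXAS1 alone has a second intronic point above 10, at 15.7.

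In 5 of the 6 genes the strongest intronic peak, by which the gene was chosen, had several times the fold of the next intronic peak. The ratio was 9.12 in ENKUR, 8.21 in EEPD1, 7.66 in VPS26C, 4.08 in PEPD and 3.92 in DISC1. In TBXAS1 it was 1.46. These ratios describe the values that chose the genes, and no test is made of them. The next peak of any kind was the exonic one labelled THNSL1 in ENKUR, at 10.2, and the 3′ UTR one in EEPD1, at 7.73. Over the 62 peaks, 52 were intronic, 9 exonic or UTR and 1 promoter-labelled, and 25 (40.3%) had a q-value under 0.05, against 48.8% of the whole list. Of the 46 intronic peaks other than the strongest, 15 (32.6%) passed that threshold, against 33.1% of all intron peaks. Their median fold was 3.07, against 2.90 for all intron peaks. The pooled share joined genes that differed, with 11 of 25 in TBXAS1, 2 of 3 in PEPD, 2 of 12 in DISC1 and 0 of 2 each in ENKUR, EEPD1 and VPS26C. At a q-value under 1e-05 the pooled share was 17.4%, against 11.2% of all intron peaks. The 8 peaks that passed this limit all lay in TBXAS1 and PEPD, and none in the other genes.

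The strongest intronic fold was above the strongest exon or UTR fold in each of the 5 hosts that had both kinds of peak. The ratio was 9.08 in VPS26C, 6.53 in DISC1, 6.03 in TBXAS1, 2.91 in EEPD1 and 2.51 in ENKUR, where the exonic peak is that of THNSL1. Of all 2910 protein-coding genes with both kinds of peak in their span, 1053 (36.2%) had the higher fold in an intron, and the median ratio was 0.803 (quartiles 0.508 to 1.22). VPS26C had the highest ratio of them all, DISC1 the third and TBXAS1 the fourth. The hosts were chosen by the numerator, so nothing is read from the direction or from these ranks. In VPS26C and DISC1 no exonic peak had a q-value under 0.05, so their denominators rest on 10 and 5 fragments. By fragments the order differed: the intronic summit had 0.378 times the RIP fragments of the exonic one in EEPD1, 1.65 times in TBXAS1, 4.10 times in VPS26C and 8.60 times in DISC1. The input level at the intronic summit was 0.0362 times the exonic one in EEPD1, 0.119 times in VPS26C, 0.148 times in TBXAS1 and 1.20 times in DISC1.

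**Figure D3:**
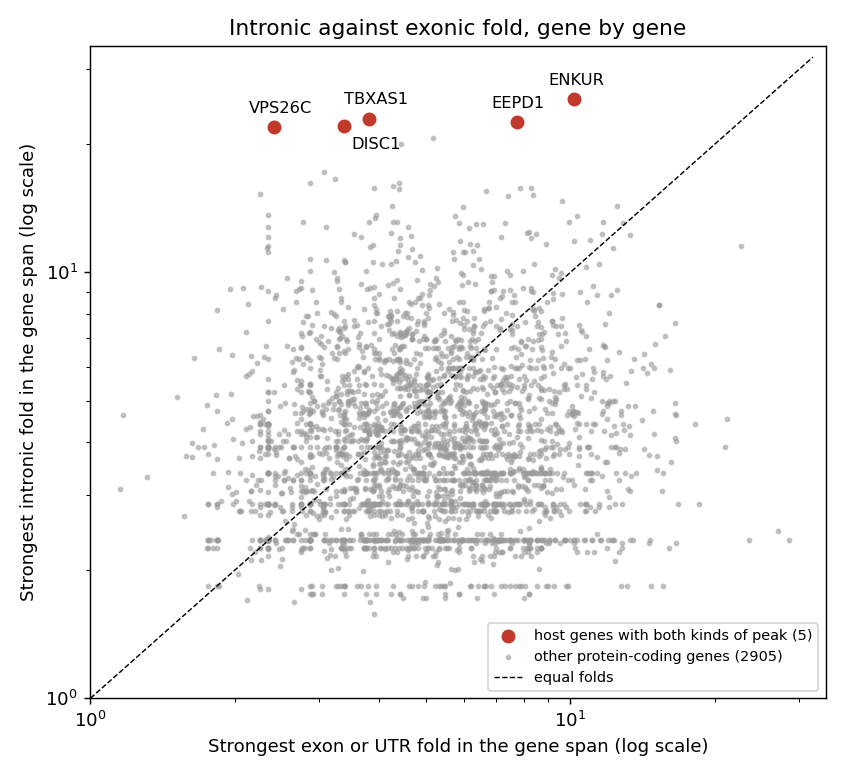
Strongest intronic fold against strongest exon or UTR fold in the span of each protein-coding gene with both kinds of peak (both axes logarithmic), with the 5 host genes in red, all others in grey and equal folds as a dashed line. All 5 red points lie above the line, and VPS26C lies farthest from it.

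Several features other than the fold varied among the 6 strong peaks. They lay in the first intron of the labelled transcript in VPS26C, the second in ENKUR and EEPD1, a middle or late one in PEPD and TBXAS1, and the last in DISC1. Along the span, counted from the 5′ end, the summits stood at 9.67% in ENKUR, 15.2% in VPS26C, 44.8% in EEPD1, 73.6% in PEPD, 85.4% in TBXAS1 and 97.6% in DISC1. The peaks were 534 bp wide in ENKUR, 542 bp in TBXAS1, 864 bp in VPS26C, 904 bp in PEPD, 985 bp in DISC1 and 1004 bp in EEPD1. All were wider than the median intron peak, 347 bp. The other 158 intron peaks with a fold of at least 10 had a median width of 530 bp (range 314 to 2675). The nearest other peak was 993 bp to 12.1 kb away, and between 0 and 3 further summits lay within 10 kb. All 6 shared a width above that of the median intron peak, but no position in the gene or spacing was common to them.

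The strong exonic and UTR peaks of the list were set beside the intronic ones. The 6 intronic peaks had 41 to 78 RIP fragments, against 46 to 65 in the 7 exon or UTR peaks with a fold of at least 20, in CREBRF, NFIA, ITSN2, PPP1R9A, FIRRE, TECPR2 and RAB30. The input level was 0.246 to 1 in both sets. Widths were 534 to 1004 bp in the intronic set, against 409 to 1025 bp in the exonic one. Both sets were picked by a fold that is computed from fragments and input. The width ranges overlapped, but width rose with fold among intron peaks, so it is no independent comparison. Median width was 347 bp over all intron peaks and 884 bp in the 6. It was 530 bp in the other intron peaks with a fold of at least 10.

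The next 6 intron peaks by fold lay in P2RY6, SENP6, CEACAM19, EHBP1, ANKRD46 and ANKDD1A, with folds of 20.7, 20, 17.2, 16.5, 16.4 and 16.3. Their counting intervals overlapped those of the 6 hosts' peaks in part, for example 15.3 to 27.4 in P2RY6 against 16.0 to 29.4 in VPS26C. They rested on 40 to 54 RIP fragments over an input level of 0.444 to 1.18. Of these genes, 4 had an exonic peak as well, with the intronic fold 3.99 times it in P2RY6, 4.50 times in SENP6, 5.60 times in CEACAM19 and 5.11 times in EHBP1. The CEACAM19 ratio rests on a weak exonic peak, of fold 3.07 (1.61 to 5.56), the lowest of the 4. Over all protein-coding genes, 136 (0.679%) held an intronic fold of at least 10. Of these, 99 had a weaker exonic peak, 32 had none and 5 had a stronger one.

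**Figure D4:**
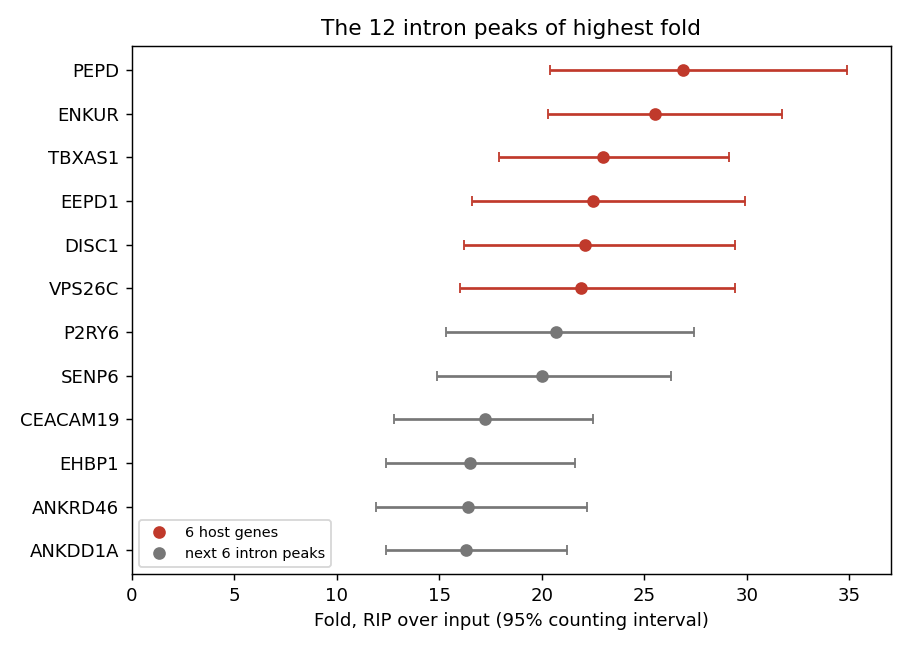
Fold over input (linear axis) with the 95% counting interval for the 12 intron peaks of highest fold, the 6 host genes in red above the next 6 in grey. Folds decline from 26.9 in PEPD to 16.3 in ANKDD1A without a gap wider than the intervals.

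The deposited table names 1 gene for each peak, with a distance to a transcript start, and for 3 of the 6 strong peaks this was a gene other than the host. The PEPD peak was named for CEBPG, a bZIP transcription factor gene whose span ends 39.8 kb from the summit and which held 1 peak of its own, a 3′ UTR peak of fold 4.72 (4.05 to 5.47, 175 fragments). The TBXAS1 peak was named for PARP12, a mono-ADP-ribosyltransferase gene 38.9 kb away with no summit in its span. The DISC1 peak was named for DISC1-IT1, a non-coding gene 86.2 kb away whose own 2 peaks rested on 3 fragments each. Of all 62 peaks in the 6 spans, 30 were named for the host. The count by deposited name was 18 of 28 for TBXAS1, 4 of 6 for EEPD1, 3 of 4 for VPS26C, 2 of 4 for ENKUR, 2 of 16 for DISC1 and 1 of 4 for PEPD.

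In 5 lists of functional partners, 38 of 63 genes held a summit in their span, against 49.3% of all protein-coding genes. For 28 genes a peak had a q-value under 0.05, against 39% of all. None of the 63 had an intronic fold of at least 10, and with 0.679% of all protein-coding genes reaching it, nothing is read from that count. The lists are not matched on expression or gene length, and nothing is called particular to them.

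Of 16 genes of the Commander complex and its retriever partners, which recycle endosomal cargo with VPS26C, 9 held a peak and 7 did so at a q-value under 0.05. The highest folds were 9.04 (5.51 to 14.2) in an intron of COMMD10, 5.47 (3.62 to 7.97) in the 3′ UTR of COMMD6 and 4.85 (3.80 to 6.10) in a promoter-labelled peak of SNX17, the sorting nexin that binds retriever cargo. VPS29 and DENND10 had none. The retriever subunit gene VPS35L held 5 peaks, 2 with a q-value under 0.05. The median of the strongest folds in this list was 3.69, against 4.73 over the 9881 protein-coding genes with a peak.

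Of 10 genes of prostanoid synthesis and response, 3 held a peak and 1 did so at a q-value under 0.05. That was CBR1, a carbonyl reductase gene, with a promoter-labelled peak of fold 2.68 (2.30 to 3.09, 182 fragments). The thromboxane receptor gene TBXA2R had a fold of 2.97 on 5 fragments and PTGDS 2.26 on 3. The cyclooxygenase genes PTGS1 and PTGS2, whose product is the substrate of thromboxane synthase, had none. TBXAS1 itself held 13 peaks at that threshold.

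Of 13 genes of proline and dipeptide metabolism, 7 held a peak and 4 did so at a q-value under 0.05. They were led by the proline dehydrogenase gene PRODH at 4.92 (2.58 to 8.92), the peptidase gene DPP8 at 4.86 (2.92 to 7.73) and DPP4 at 4.03 (2.26 to 6.81). The hydroxyproline dehydrogenase gene PRODH2 and the proline synthesis gene PYCR1 had none. The median of the strongest folds was 3.35.

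Of 11 genes of replication fork resection and repair, 9 held a peak and 7 did so at a q-value under 0.05. MRE11, a nuclease gene, had a promoter-labelled peak of fold 15.7 (11.9 to 20.5, 52 fragments), and BRCA2 reached 8.20 (5.43 to 12) in an exon. The highest fold in the BRCA1 span, 8.91 (6.76 to 11.6), carried the intron label of LOC101929767, so its source gene is not settled. The strongest exonic fold of BRCA1 was 4.90. DNA2 and MUS81 had none. The median of the strongest folds was 6.47.

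Of 13 genes for proteins that bind DISC1, 10 held a peak and 9 did so at a q-value under 0.05. The phosphodiesterase gene PDE4D had 46 peaks, with the highest fold in its 3′ UTR at 12.5 (9.57 to 16.1). GSK3B, a kinase gene, reached 6.08 (3.41 to 10.3) in an intron and NDEL1, a dynein regulator gene, 5.97 (4.41 to 7.93) in an exon. NDE1, FEZ1 and TSNAX, the upstream partner of the read-through gene, had none. The median of the strongest folds was 4.49.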

How the data were processed

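m6A was measured in 1 RIP and 1 input library of HCCLM3 cells. Per the submitters' processing notes, HISAT2, MACS2 and hg38 were used. For versions, settings and thresholds, the labels say nothing. The authors deposited 1 annotated peak table with a fold (a linear ratio of RIP over input, per the file headers), a score, a −log10 p-value and a −log10 q-value for each peak. The last 2 headers are damaged. The first of these columns was read as −log10 p because the deposited score is 10 times it, rounded down, for 99.99% of peaks. The second was read as −log10 q from its values, and the score gives no check of that reading. Peaks are numbered up to 39824, and 23 numbers are not used here.

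A peak was given to a gene when its summit lay in the gene's RefSeq span (GRCh38.p14). Region labels were kept as the authors deposited them. From fold and p, each summit's RIP fragments and input level were worked back with a scaling factor of 0.642, a pseudocount of 1 and a Poisson tail. Whole fragment numbers met 100% of peaks within 0.001 on the −log10 p scale, 98.2% of them by 1 number alone, against 1.32% without scaling. On 2000 simulated peaks, the fragment number was recovered for 100%. Those peaks were built with the same formula and scaling factor, so this checks the arithmetic only. RIP was 1.56 times the size of the input, and total depth is unknown. Each fold's 95% counting interval is the exact Poisson one for its RIP fragments and takes the input level as known. Only counting error is covered, and without molecular identifiers the fragments are no independent molecules. Python 3.11.15, scipy 1.17.1 and statsmodels 0.14.6 were used.

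No test was made, since each group holds 1 library. Part of the hepatocyte marker list is not reported here. The members, gene lists and thresholds were chosen with earlier results of these data known. The genes named are the 6 members with their strongest intronic and exonic peaks and those with a q-value under 0.05, the genes the table names for them, the next 6 intron peaks, and in each partner list the 3 of highest fold and, in list order, the first 2 that held no peak. Peaks of the members above that q-value, CREBRF and the other genes of strong exonic peaks, VPS35L, TSNAX and the overlapping genes were added after their values were seen. Alternatives varied the q threshold, the pseudocount, the gene assignment and what counts as exonic or intronic.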

Additional observations from a re-analysis of the deposited data

How the results depend on the processing

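The counts of peaks depended on the threshold and on the gene assignment. The 62 peaks of the 6 genes became 25 when a q-value under 0.05 was asked for, 18 with 1e-05 as the limit and 30 by the gene name in the deposited table, and stayed 62 when any overlap with the span counted. The intronic fold exceeded the exonic one in 5 of 5 genes as reported, without the pseudocount (ratios of 2.80 to 34.5) and with promoter labels counted as exonic. With exonic peaks at a q-value under 0.05, 3 genes were left to compare, all with the intronic fold higher. Both counts include ENKUR, whose exonic peak is that of THNSL1. The genes were chosen by the intronic fold, so nothing is read from this direction under any setting. Without the pseudocount the strongest intronic folds were 50 in ENKUR, 106 in PEPD, 47.7 in TBXAS1, 88.7 in EEPD1, 107 in VPS26C and 93.2 in DISC1, so both the order among the 6 and their standing at ranks 1 to 6 of the intron peaks rest on the pseudocount. Without it, ENKUR fell to rank 24 and TBXAS1 to rank 31, and the other members held ranks 1 to 4. The share of intron peaks with a fold of at least 10 was 1.09% in all, 3.29% with q under 0.05 and 9.75% with q under 1e-05, since fewer weak peaks are then counted, and 1.11% when intronic was taken from RefSeq spans. Partner genes with a peak numbered 38, or 28 with q under 0.05, 21 with q under 1e-05 and 37 by deposited name. No paired analysis was possible because each group holds 1 library. An input level of at most 1 at the 6 summits limits how well any of these folds is known. Such a level is common, with a median of 0.296 over all intron peaks.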
